A study of Mus musculus with 15 samples.

Results

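Voltage-gated sodium channels were followed as 7 genes in RNA-seq of cultured mouse hippocampal neurons: the pore-forming alpha subunits Scn1a, Scn2a, Scn3a and Scn8a and the auxiliary beta subunits Scn2b, Scn3b and Scn4b. They were taken by symbol from a counts table of 24498 genes, in which Scn2a carries its older symbol Scn2a1. All 7 had a row, and 6 passed the filter on low counts and stood among the 15075 genes tested; Scn4b did not. The cells were primary hippocampal neurons from a core facility, and the sources used here give no strain, age or sex. After 7 days of differentiation every culture was treated for 24 h, with 5 mM acetate or its medium vehicle, and with 20 µM of an inhibitor of ACSS2 or its DMSO solvent. The 15 libraries formed 4 groups, DMSO vehicle (n = 4), DMSO acetate (n = 4), inhibitor vehicle (n = 3) and inhibitor acetate (n = 4). The acetate was meant to mimic heavy drinking, and ACSS2 is the enzyme that turns acetate into acetyl-CoA; the inhibitor is named in the labels by its target alone. The comparisons ask how acetate changed the channel genes, with and without the inhibitor. Whether replicates were independent cultures is not stated, so the p-values rest on library-to-library spread, which may be technical.

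Voltage-gated sodium channels open when the membrane is depolarised and carry the rising phase of the action potential. An alpha subunit forms the pore and the voltage sensor by itself, and beta subunits, single-pass proteins with an immunoglobulin-like domain, shift its gating and its placement in the membrane and also act in cell adhesion. In hippocampal pyramidal neurons Scn2a and Scn8a supply most of the channels of the axon initial segment, where ankyrin-G holds them; Scn2a leads early in development and Scn8a later, Scn3a is known from embryonic brain, and Scn1a is best known from inhibitory interneurons. Beta 2 and beta 4 are bound to alpha subunits by a disulfide bond, whereas beta 3 is held without one.

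Gene counts per library summed to between 19688231 and 39234799, and the biological coefficient of variation was 16.8%. All 14 pan-neuronal markers were present in every library, the scarcest (Elavl4) with at least 811 counts, but the libraries also held RNA of other cells, and its amount moved with acetate. Summed CPM (counts relative to library size, scaled by TMM, edgeR's trimmed mean of M values) of 10 astrocyte markers spanned 4550 to 12500 in DMSO vehicle and 3600 to 4460 in DMSO acetate; under inhibitor it spanned 4300 to 13600 with vehicle and 3160 to 4730 with acetate. For 13 microglia and macrophage markers the ranges were 140 to 694, 32.1 to 53.4, 26.1 to 573 and 22.4 to 64.8 in the same order. The summed oligodendrocyte lineage markers were not lower with acetate, at 306 to 881, 707 to 991, 252 to 1090 and 438 to 1100. Olig1, which ran from 54.9 to 939 CPM over the libraries, had the highest level among them. With acetate and no inhibitor, 6 of 10 tested astrocyte, 8 of 10 oligodendrocyte lineage, 12 of 12 microglia, 6 of 9 vessel cell and 7 of 8 meningeal markers fell, 1 vessel marker rose, and 12 of 14 pan-neuronal markers rose (median log2 fold 0.67); of all genes tested 27.5% fell and 23.7% rose. Among the glial and vessel markers, Cldn5 had no count in 9 libraries, Mog in 7, Flt1 in 5, Tek in 4 and Cdh5 in 2, and Mag, Cx3cr1, P2ry12, Itgam and Ptprc in 1 each. A pair of vehicle libraries stood apart: the non-neuronal score (mean log2 CPM over 5 lists of glial, vessel and meningeal markers) was 3.05 in DMSO vehicle 1, against 4.12 to 4.33 in the other DMSO vehicle libraries, and 1.73 in inhibitor vehicle 2, against 3.87 and 4.17 in inhibitor vehicle 1 and 3. Fewer cells of a type and less RNA per cell cannot be told apart in such samples.

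On the mouse genome (GRCm38, GENCODE M21 gene models), Scn3a, Scn2a and Scn1a lie close together on chromosome 2: Scn3a on the minus strand from 65457118 to 65567627, Scn2a on the plus strand from 65620771 to 65767447 and Scn1a on the minus strand from 66270778 to 66440840. Scn3a and Scn2a point away from each other, 53143 bases apart. Scn8a lies on chromosome 15 from 100869858 to 101045938, plus strand. The beta genes are on the plus strand of chromosome 9, Scn3b from 40269217 to 40291618, Scn2b from 45117782 to 45130070 and Scn4b from 45138395 to 45154152, the last starting 8324 bases after Scn2b ends. Unnamed or non-coding genes on the opposite strand overlap Scn1a (Gm13630), Scn3a (Gm13595), Scn2b (Gm10684) and Scn3b (Gm47266). The library kit marks strand, but the strand setting of the counting is unknown here. Overlap was looked for between whole genes, not exons, and of these partners only Gm10684 has a row in the counts table. Whether reads of a partner were counted for any of these 4 genes was not checked.

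Scn2a and Scn8a, the most abundant alpha genes, have start regions of contrasting base composition, which are shown for that reason. Both are the 250 bases before a RefSeq start (GRCm38.p6), plus strand, written 5′ to 3′ with CG pairs in capitals, for Scn2a at chr2:65620519-65620768 and for Scn8a at chr15:100870395-100870644; neither overlaps an annotated exon.
Scn2a: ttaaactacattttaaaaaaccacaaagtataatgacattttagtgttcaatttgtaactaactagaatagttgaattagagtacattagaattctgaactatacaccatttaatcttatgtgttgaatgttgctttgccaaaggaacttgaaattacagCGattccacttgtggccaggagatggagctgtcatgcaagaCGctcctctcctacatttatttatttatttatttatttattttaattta
Scn8a: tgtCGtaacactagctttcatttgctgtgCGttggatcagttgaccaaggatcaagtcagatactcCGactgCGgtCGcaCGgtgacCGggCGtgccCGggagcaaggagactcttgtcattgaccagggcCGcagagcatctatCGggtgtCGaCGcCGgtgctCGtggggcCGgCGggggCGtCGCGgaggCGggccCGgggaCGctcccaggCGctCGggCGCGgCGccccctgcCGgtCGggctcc
The Scn2a window held 29.6% G and C and 2 CG pairs, and the Scn8a window 68.0% and 30, against a median of 52.4% over 32851 such mouse windows. A second RefSeq start of Scn2a (chr2:65668436-65668685) and of Scn8a (chr15:100936021-100936270) each had 53.2% and 9 CG pairs. Windows were also found for Scn1a (46.8%, 4 CG pairs), Scn2b (38.4%, 1 CG pair) and Scn4b (66.0%, 23 CG pairs), so 5 of the 7 genes had one. On both strands of these 7 windows, the letters TGACGTCA (cAMP response element, in 1.55% of all windows), TGANTCA (AP-1, 6.75%), GGGCGG (GC box, 32.7%), CACGTG (E-box, 6.02%) and the RE1 parts TTCAGCACC (0.301%) and GGACAGC (5.28%) were not found, which says only that these letters are not in these bases.

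Per length of exon, the beta subunit Scn3b was the most abundant of the 7 in every group, and Scn2a and Scn8a made up most of the alpha subunit RNA. In DMSO vehicle the level was 15.4 ± 1.68 CPM per kb for Scn3b (SD, n = 4, as for the other values of this group), 9.48 ± 1.10 for Scn2a, 7.39 ± 1.46 for Scn2b, 7.23 ± 1.21 for Scn8a, 1.36 ± 0.201 for Scn3a, 0.503 ± 0.0371 for Scn1a and 0.0780 ± 0.0227 for Scn4b. In that order, the libraries of Scn2a, Scn2b and Scn8a overlapped, and every other step between neighbours was free of overlap. The order of Scn2b and Scn8a turned with the length used. Per kb of the longest transcript, Scn8a stood at 9.96 ± 1.67, above Scn2b at 7.39 ± 1.46, with Scn2a at 13.5 ± 1.57. All other values here are per kb of exon. Of the summed alpha RNA per kb in DMSO vehicle, Scn2a made up 51.1% ± 0.985, Scn8a 38.8% ± 2.23, Scn3a 7.34% ± 1.07 and Scn1a 2.73% ± 0.221. The sum itself was 18.6 ± 2.39 CPM per kb in DMSO vehicle and 29.6 ± 1.08 in DMSO acetate (n = 4 each), 24.6 ± 5.10 in inhibitor vehicle (n = 3) and 29.2 ± 3.76 in inhibitor acetate (n = 4). The Scn3a share was 8.42% ± 1.06 in DMSO acetate, 10.5% ± 2.13 in inhibitor vehicle and 12.1% ± 1.29 in inhibitor acetate, and the Scn8a share 37.3% ± 1.32, 33% ± 0.648 and 35.2% ± 2.24.

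**Figure D1:**
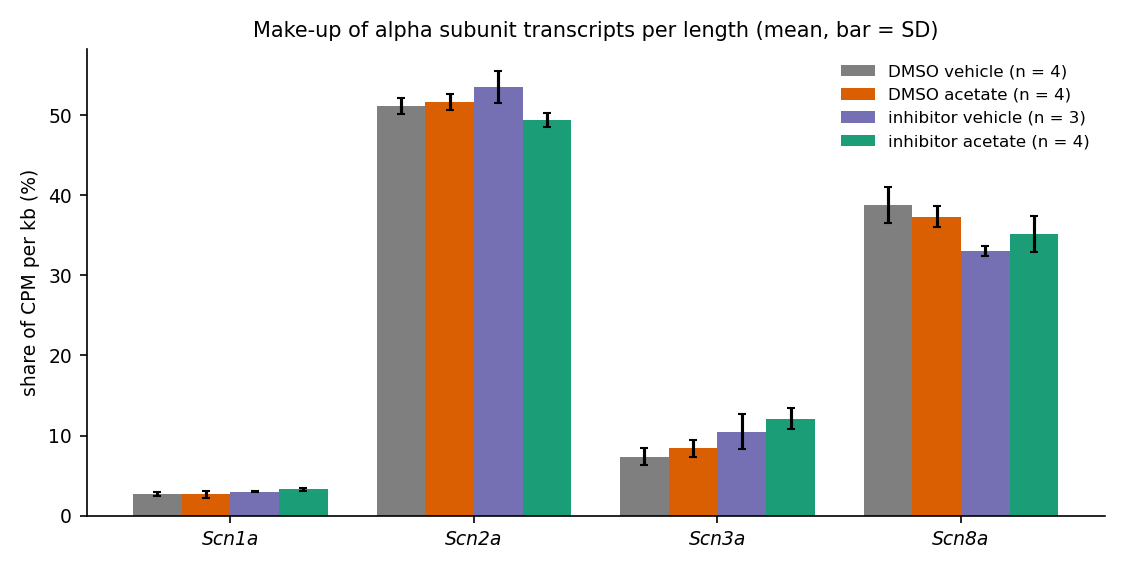
Share of each alpha subunit gene in the summed CPM per kb of exon of the 4 genes (percent, y axis) in the 4 groups; bars are means and error bars the SD over 3 or 4 libraries. Scn2a took 51.1% and Scn8a 38.8% in DMSO vehicle, and Scn3a ran from 7.34% there to 12.1% in inhibitor acetate.

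Without inhibitor, all 6 tested genes were higher with acetate under TMM scaling, where 23.7% of all genes tested rose, but 5 of the 6 folds were negative when libraries were scaled to the 14 pan-neuronal markers instead, which moved the median of all genes from -0.03 to -0.90. The alpha genes rose by 0.61 to 0.87 on the log2 scale and Scn3b by 0.77, with Scn2b at 0.33, so the median of the 6 was 0.67, against -0.03 for all genes. For 5 of the 6, all but Scn2b, every acetate library was above every vehicle library, a pattern that 22.1% of genes tested showed. Group differences are edgeR log2 folds with their standard error (SE), and rose or fell is used at a Benjamini-Hochberg adjusted p under 0.05 over all genes tested.

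Scn2a, the leading alpha gene, read 141, 116, 117 and 109 CPM in DMSO vehicle 1 to 4 and 182, 203, 195 and 197 in DMSO acetate 1 to 4. The groups were well apart, with DMSO vehicle 1 the nearest of the controls. The log2 fold was 0.69 (SE 0.12, edgeR quasi-likelihood test, Benjamini-Hochberg adjusted p = 0.000466). Scn8a, the alpha subunit of mature initial segments and nodes of Ranvier, read 141, 97.3, 115 and 103 CPM in DMSO vehicle and 173, 178, 170 and 174 in DMSO acetate. Here too DMSO vehicle 1 was the highest control, and the acetate libraries were tightly grouped. Its fold was 0.61 (SE 0.11, edgeR adjusted p = 0.000617).

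Scn3a, the embryonic alpha gene, read 18.8, 19.3, 14.8 and 14.7 CPM in DMSO vehicle and 27.3, 27.7, 32.2 and 37.0 in DMSO acetate. Acetate libraries were all above the controls, and its fold was the largest of the 6, 0.87 (SE 0.20, edgeR adjusted p = 0.00225). Scn1a, the interneuron-linked gene and the least abundant of the 4 alpha genes, read 6.09, 5.80, 5.33 and 5.21 CPM in DMSO vehicle and 7.24, 7.81, 8.90 and 11.2 in DMSO acetate. Controls of Scn1a were close together and acetate libraries spread more widely, without overlap, and the fold was 0.64 (SE 0.16, edgeR adjusted p = 0.00417).

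Scn3b, the abundant beta gene, read 97.8, 79.0, 80.0 and 79.7 CPM in DMSO vehicle and 152, 153, 130 and 139 in DMSO acetate. DMSO vehicle 1 again stood above the other controls, still far below the acetate libraries, and the fold was 0.77 (SE 0.11, edgeR adjusted p = 9.02e-05). Scn2b, which encodes the disulfide-bound beta 2, read 43.1, 26.9, 35.4 and 32.4 CPM in DMSO vehicle and 46.1, 43.6, 42.9 and 39.8 in DMSO acetate. DMSO vehicle 1 lay within the acetate range, so the groups overlapped. The Scn2b fold of 0.33 (SE 0.12, edgeR adjusted p = 0.0349) passed in 9 of 15 fits that left out 1 library, and not without DMSO vehicle 2, 3 or 4 or DMSO acetate 1, 2 or 3, with adjusted p from 0.00273 to 0.124.

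Scn4b, the disulfide-bound beta 4, was at the edge of detection, with 89 counts over all libraries. It had 11, 10, 6 and 14 counts in DMSO vehicle, 1, 4, 5 and 1 in DMSO acetate, 6, 4 and 12 in inhibitor vehicle, and 2, 8, 1 and 4 in inhibitor acetate. Every DMSO acetate library was below every DMSO vehicle library, as for 23.3% of genes tested, at 0.114 ± 0.0932 against 0.388 ± 0.113 CPM (SD, n = 4 each). In a fit with no filter on low counts, which tested 19975 genes, its log2 fold was -1.80 (SE 0.60, edgeR adjusted p = 0.0246), the opposite sign to the other 6; 20.8% of those genes fell.

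**Figure D2:**
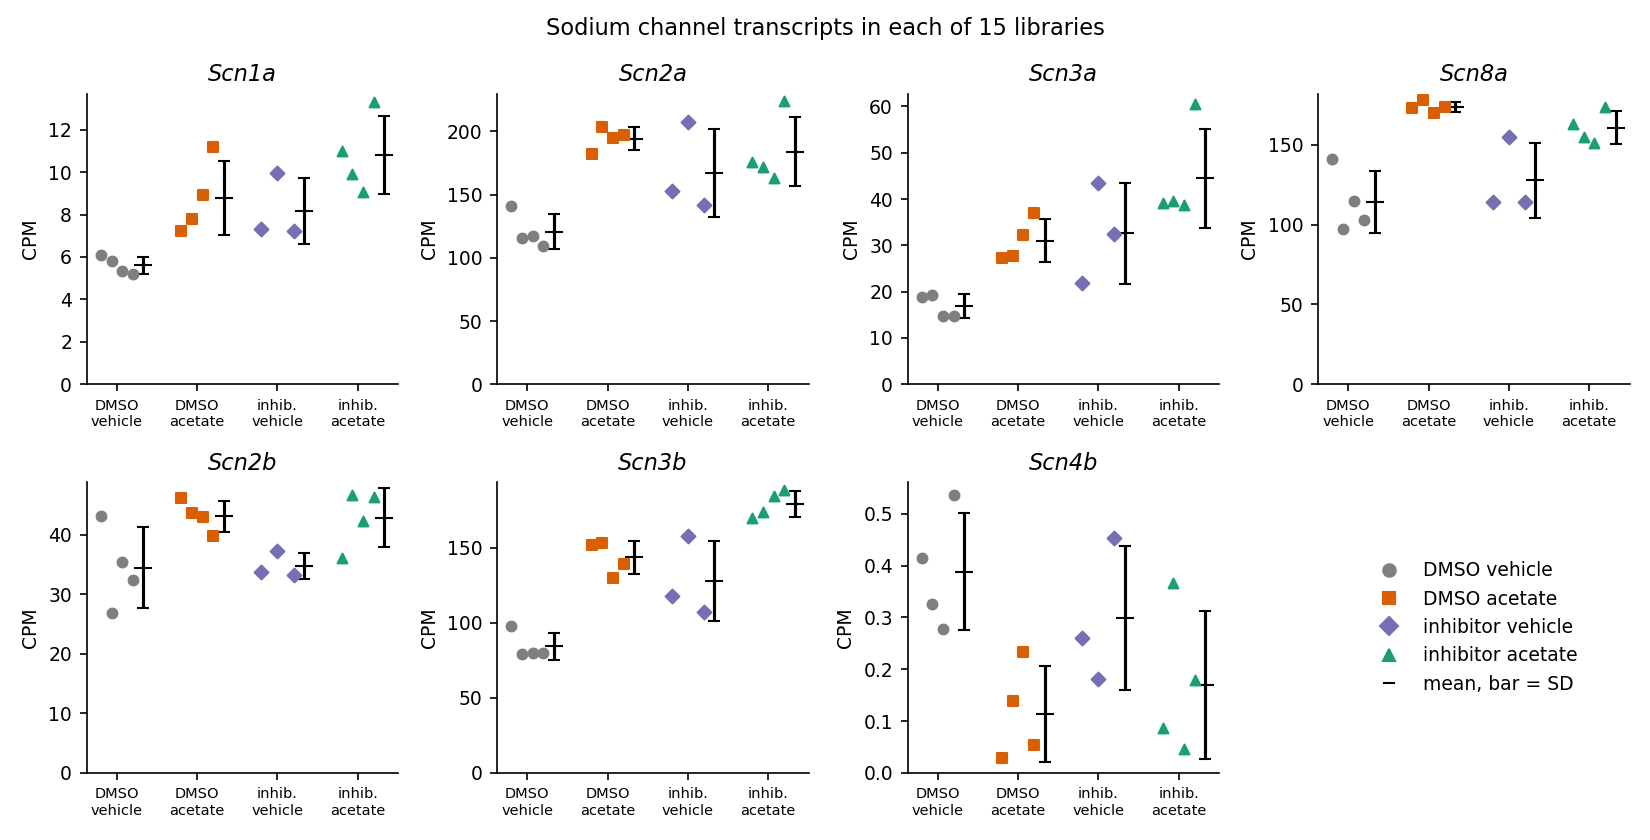
CPM (y axis, from 0) of the 7 sodium channel genes in each of 15 libraries; points are libraries and the black mark with its bar the group mean and SD. For Scn2a the DMSO acetate libraries lay at 182 to 203 and the DMSO vehicle libraries at 109 to 141; Scn4b stayed under 1 CPM in every library. These levels are TMM-scaled, and the acetate folds of 5 of the 6 tested genes turned negative under scaling to pan-neuronal markers, where 86.6% of all genes fell without inhibitor.

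With the ACSS2 inhibitor present, all 6 acetate folds were positive under TMM scaling and 2 genes rose, Scn3b and Scn8a, against 14.5% of all genes tested; scaled to the pan-neuronal markers, which put the median of all genes at -0.62, all 6 folds were negative. Scn3b read 118, 158 and 107 CPM in inhibitor vehicle and 170, 174, 184 and 188 in inhibitor acetate. It was the only one of the 6 whose groups did not overlap (16.4% of all genes tested had higher acetate libraries throughout), with a fold of 0.49 (SE 0.12, edgeR adjusted p = 0.00635). The median of the 6 was 0.37, against -0.03 for all genes. Scn8a read 114, 155 and 114 CPM in inhibitor vehicle and 163, 155, 151 and 174 in inhibitor acetate. The second inhibitor vehicle library lay within the acetate range, and the fold of 0.33 (SE 0.12, edgeR adjusted p = 0.0484) passed in 4 of 15 fits that left out 1 library (adjusted p 0.00304 to 0.184): those without DMSO vehicle 1, 2 or 4 or inhibitor vehicle 2.

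Scn2a read 153, 207 and 142 CPM in inhibitor vehicle and 176, 172, 163 and 224 in inhibitor acetate. The vehicle range here reached into the acetate range, and the fold was 0.14 (SE 0.13, edgeR adjusted p = 0.455). Scn3a read 21.8, 43.5 and 32.4 CPM in inhibitor vehicle and 39.2, 39.5, 38.8 and 60.5 in inhibitor acetate, a fold of 0.45 (SE 0.21, edgeR adjusted p = 0.112). Inhibitor vehicle 2 was the highest vehicle library of both genes. Scn1a read 7.30, 9.94 and 7.22 CPM and then 11, 9.92, 9.04 and 13.3, a fold of 0.41 (SE 0.17, edgeR adjusted p = 0.0786). Scn2b read 33.8, 37.2 and 33.2 CPM and then 36.0, 46.7, 42.3 and 46.3, a fold of 0.30 (SE 0.13, edgeR adjusted p = 0.0882). Neither was free of overlap.

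These counts changed with inhibitor vehicle 2, the vehicle library with a low non-neuronal score. Without it 5 of the 6 genes rose, against 18.9% of genes tested, Scn1a by 0.58, Scn2a by 0.32, Scn3a by 0.72, Scn8a by 0.50 and Scn3b by 0.67; Scn2b was at 0.36 (edgeR adjusted p = 0.0650). Without DMSO vehicle 1, 3 rose, Scn2b being added (edgeR adjusted p = 0.0331), against 16.8% of genes tested. With both DMSO vehicle 1 and inhibitor vehicle 2 left out, all 6 rose in both acetate comparisons, by 0.46 to 0.92 without inhibitor and 0.32 to 0.71 with it; 28.0% and 22.5% of genes tested did so.

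The acetate response with inhibitor minus that without was negative for all 6 genes and passed for none, in a comparison where 3 genes (0.0199%) passed in all. Scn2a had the largest difference, -0.55 (SE 0.18, edgeR unadjusted p = 0.00783, adjusted p = 0.107), and it was the only gene of the 6 with an unadjusted p under 0.05. The others were Scn3a at -0.42 (SE 0.29), Scn3b at -0.28 (SE 0.16), Scn8a at -0.28 (SE 0.17), Scn1a at -0.23 (SE 0.23) and Scn2b at -0.02 (SE 0.18). Scaled to the pan-neuronal markers, Scn1a, Scn2b and Scn3b had differences above 0. Without inhibitor vehicle 3 the Scn2a difference was -0.64 (edgeR adjusted p = 0.0476, in a fit where 4.89% of genes passed in that direction), and without inhibitor vehicle 2 it was -0.37 (edgeR adjusted p = 0.204). DESeq2, which called 5.2% of the genes it tested lower, put the Scn2a difference at -0.55 (DESeq2 adjusted p = 0.0582) and called none of the 6.

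With inhibitor alone Scn2a, Scn3a and Scn3b rose in the fit of all 15 libraries, where 3.47% of genes tested rose, and the folds of these 3 were positive under each scaling tried. This comparison and the acetate comparisons share the vehicle libraries, so their folds are not independent. Scn3a stood at 32.6 ± 10.9 CPM in inhibitor vehicle (SD, n = 3) against 16.9 ± 2.51 in DMSO vehicle (n = 4), a fold of 0.94 (SE 0.21, edgeR adjusted p = 0.0237). Scn3b stood at 128 ± 26.6 against 84.1 ± 9.16, a fold of 0.60 (SE 0.12, edgeR adjusted p = 0.0154). Scn2a stood at 168 ± 34.8 against 121 ± 14, a fold of 0.47 (SE 0.13, edgeR adjusted p = 0.0497). For these 3 and for Scn1a (fold 0.54, SE 0.17, edgeR adjusted p = 0.0753) every inhibitor vehicle library was above every DMSO vehicle library, as for 9.34% of genes tested. Scn8a (0.17, SE 0.12) and Scn2b (0.01, SE 0.13) overlapped.

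Inhibitor vehicle 2 weighed on this comparison as well: it held the highest inhibitor vehicle value of all 6 genes, and without it the rise was called for Scn3b alone (fold 0.42, edgeR adjusted p = 0.0465), with Scn3a at 0.68 (edgeR adjusted p = 0.0823) and Scn2a at 0.29 (edgeR adjusted p = 0.178), in a fit where 0.877% of genes rose. With inhibitor vehicle 2 and DMSO vehicle 1 both left out all 3 rose, Scn3b by 0.50, Scn3a by 0.73 and Scn2a by 0.37, against 2.71% of genes. The Scn2a call held in 3 of 15 fits that left out 1 library, without DMSO vehicle 1, inhibitor vehicle 3 or inhibitor acetate 4, and was lost under median-ratio (edgeR adjusted p = 0.0532) and upper-quartile scaling (edgeR adjusted p = 0.0534). When only the 7 libraries of the comparison were fitted, edgeR called 0 of the 6 and 0 of 14977 genes (0.0%), with adjusted p of 0.229 for Scn3a and Scn3b and 0.250 for Scn2a.

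In the presence of acetate the inhibitor changed none of the 6 at the threshold, where 2.36% of genes tested rose and 3.42% fell. Scn3a stood at 44.5 ± 10.7 CPM in inhibitor acetate against 31.1 ± 4.55 in DMSO acetate (SD, n = 4 each), a fold of 0.52 (SE 0.20, edgeR adjusted p = 0.128). Scn3b stood at 179 ± 8.54 against 144 ± 10.9, a fold of 0.32 (SE 0.11, edgeR adjusted p = 0.0959). In both genes every inhibitor acetate library was above every DMSO acetate library, a pattern of 8.96% of genes tested. Fitted on these 8 libraries alone, Scn3a (0.54, edgeR adjusted p = 0.0167) and Scn3b (0.33, edgeR adjusted p = 0.00596) rose, with 8.58% of genes. Scn3b also rose without DMSO vehicle 1 (edgeR adjusted p = 0.0469, with 3.98% of genes) and without inhibitor vehicle 2 (edgeR adjusted p = 0.0237, with 3.53%), libraries outside this comparison that enter its estimate of the spread. The folds of Scn1a (0.30), Scn2a (-0.08), Scn8a (-0.11) and Scn2b (-0.01) were within 2 standard errors of 0.

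The share of RNA from neurons was not measured, and marker genes stand in for it here, though they may respond to acetate themselves. The mean log2 CPM of the 14 pan-neuronal markers was 8.22 ± 0.22 in DMSO vehicle, 8.92 ± 0.06 in DMSO acetate, 8.30 ± 0.23 in inhibitor vehicle and 8.81 ± 0.06 in inhibitor acetate (SD, n = 4, 4, 3 and 4), higher with acetate in both pairs. Scaled to the summed counts of these markers, the median fold of all genes for acetate without inhibitor was -0.90 and that of the 6 sodium channel genes -0.18; a change of scaling shifts every gene by about the same amount. On that scale Scn8a (-0.23, edgeR adjusted p = 0.0156) and Scn2b (-0.51, edgeR adjusted p = 0.000497) fell without inhibitor, where 86.6% of genes fell, Scn1a (-0.20), Scn2a (-0.16), Scn3a (0.02) and Scn3b (-0.08) passed in neither direction, and 1.03% of genes rose. With inhibitor Scn2a (-0.44), Scn8a (-0.24) and Scn2b (-0.29) fell, as did 69.2% of genes, and 0.929% rose; the median over all genes was -0.62. For the inhibitor the same scaling moved that median to -0.13 without acetate and 0.15 with it, and Scn3b was the 1 gene of the 6 that rose, by 0.46 without acetate (edgeR adjusted p = 0.0476, 0.146% of genes) and by 0.47 with it (edgeR adjusted p = 0.0269, 0.352% of genes).

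When the non-neuronal score entered the TMM fit as a covariate, Scn3b alone of the 6 rose with acetate in the absence of inhibitor (0.34, SE 0.11, edgeR adjusted p = 0.0413; 7.89% of genes rose), and none rose with inhibitor, where 5.07% of genes did. The other folds without inhibitor were 0.36 for Scn3a, 0.24 for Scn1a, 0.22 for Scn2a, 0.15 for Scn8a and 0.07 for Scn2b. In the same fit the inhibitor without acetate raised Scn2a (0.30), Scn3a (0.74) and Scn3b (0.44), against 7.83% of genes, and the inhibitor with acetate raised Scn3a (0.49, edgeR adjusted p = 0.0412) and Scn3b (0.29, edgeR adjusted p = 0.00683), against 5.68%. The score and acetate move together across these libraries, apart from the pair of vehicle libraries named above, so the part of cell make-up in the acetate folds cannot be told apart from acetate by these values.

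**Figure D3:**
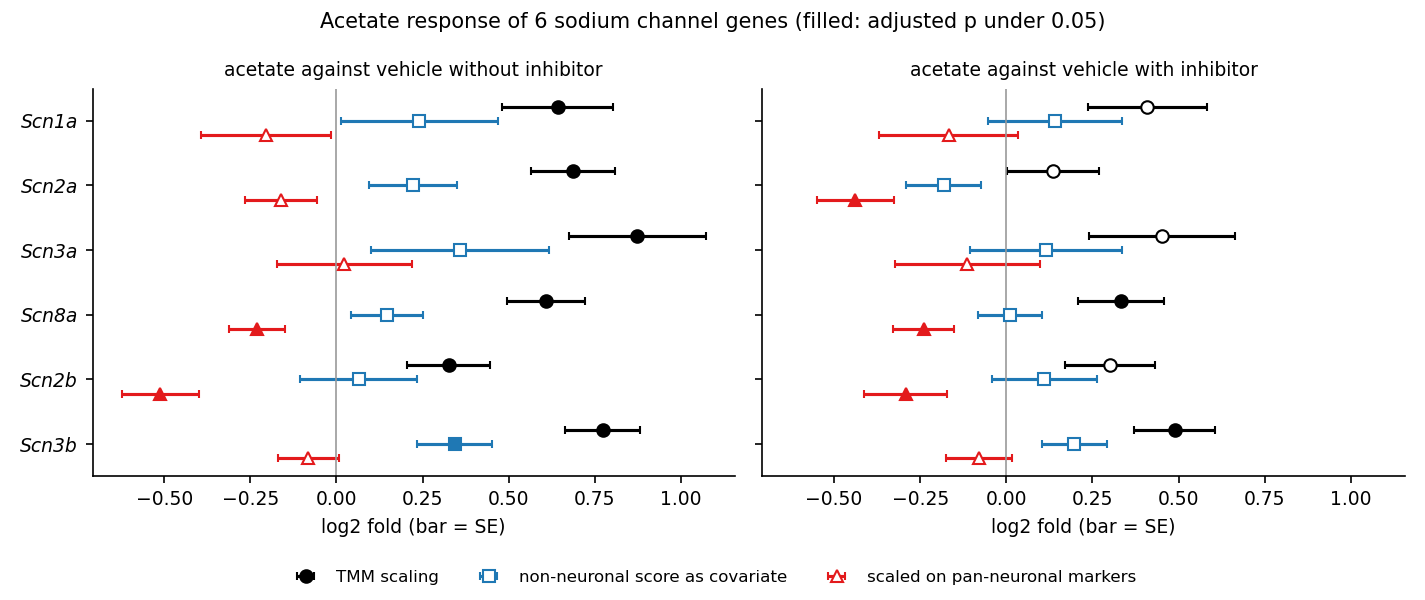
Log2 fold with SE (x axis) of the 6 tested genes for acetate against vehicle without inhibitor (left) and with it (right), by TMM scaling, with the non-neuronal score as covariate, and scaled on pan-neuronal markers; filled symbols have an adjusted p under 0.05. The 6 TMM folds without inhibitor ran from 0.33 to 0.87, and on the neuronal scale from -0.51 to 0.02.

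DMSO vehicle 1 and inhibitor vehicle 2 had almost the same neuronal marker mean, 8.55 and 8.57, and their channel genes can be read side by side. Scn8a was at 141 and 155 CPM in them, Scn2a at 141 and 207, Scn3b at 97.8 and 158, Scn3a at 18.8 and 43.5. At these like marker means Scn3a was thus much higher in the inhibitor library and Scn8a only slightly, in 1 library each and so with no test. They were alike in that mean alone: their non-neuronal scores were 3.05 and 1.73, and their summed microglia markers 140 and 26.1 CPM.

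**Figure D4:**
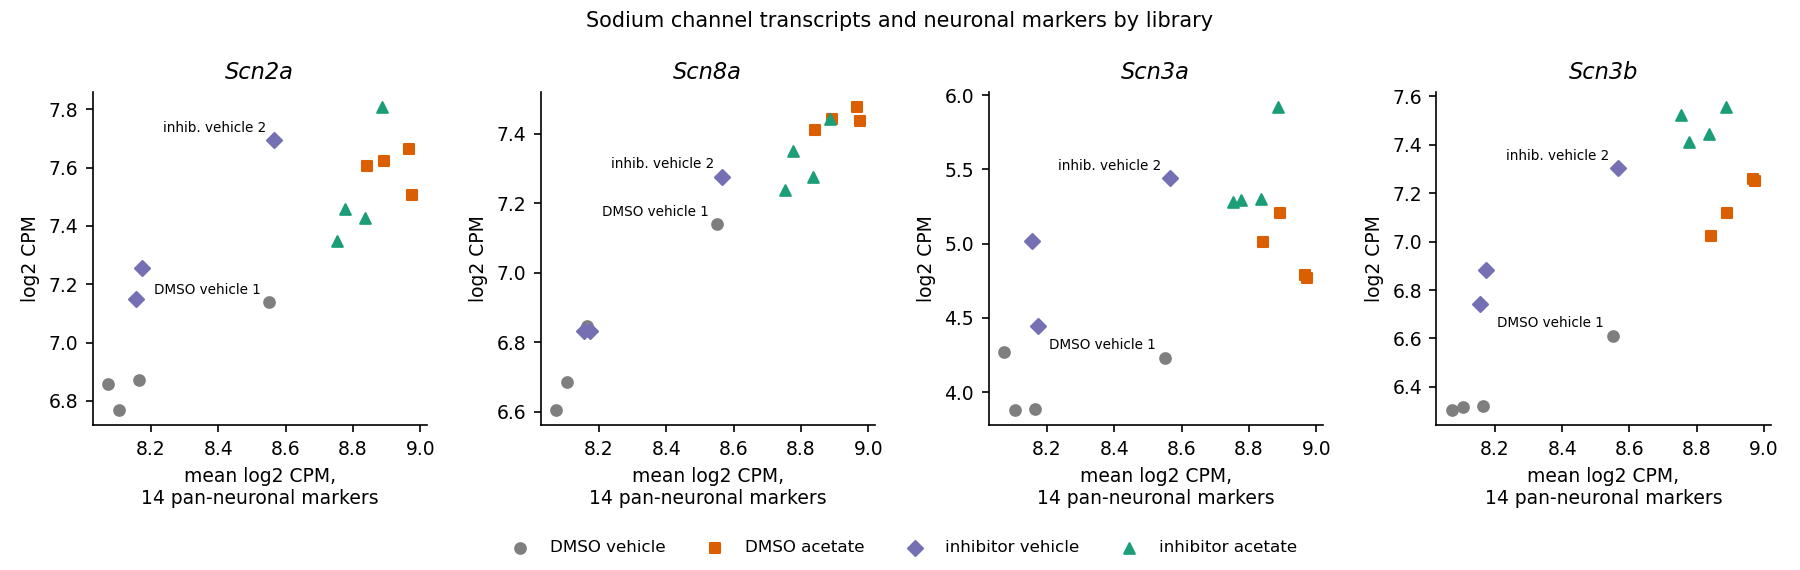
Log2 CPM of Scn2a, Scn8a, Scn3a and Scn3b (y axis) against the mean log2 CPM of 14 pan-neuronal markers (x axis), 1 point per library. At marker means of 8.55 and 8.57, Scn3a and Scn3b read 18.8 and 97.8 CPM in DMSO vehicle 1 and 43.5 and 158 CPM in inhibitor vehicle 2, while Scn8a read 141 and 155 CPM.

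Ratios between channel genes within a library do not depend on scaling, and 4 ratios were compared in 4 pairwise comparisons, 16 exact two-sided permutation tests in all. The smallest p these designs allow is 0.0286 for 4 against 4 libraries and 0.0571 for 4 against 3. With these limits no p could fall under 0.05 after Benjamini-Hochberg adjustment over the 16 tests. That none passed (smallest adjusted p 0.114) was thus fixed by the design and does not speak against a change in a ratio. The log2 ratio of Scn2b to Scn3b was highest in DMSO vehicle, -1.18, -1.56, -1.18 and -1.30 by library. It was -1.72, -1.82, -1.60 and -1.81 in DMSO acetate, -1.81, -2.08 and -1.69 in inhibitor vehicle, and -2.24, -1.90, -2.12 and -2.02 in inhibitor acetate. Every DMSO vehicle library was above all libraries of the other 3 groups. The mean difference was -0.43 for acetate without inhibitor (exact permutation p = 0.0286, adjusted p = 0.114), -0.55 for inhibitor without acetate (exact permutation p = 0.0571, adjusted p = 0.131) and -0.33 for inhibitor with acetate (exact permutation p = 0.0286, adjusted p = 0.114). For acetate with inhibitor it was -0.21, with overlap (exact permutation p = 0.171, adjusted p = 0.249).

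In the presence of acetate the ratios of both leading alpha genes to Scn3a were lower with inhibitor. The log2 ratio of Scn2a to Scn3a was 2.06 ± 0.12 in inhibitor acetate against 2.65 ± 0.20 in DMSO acetate (SD, n = 4 each; exact permutation p = 0.0286, adjusted p = 0.114), without overlap. Scn8a to Scn3a was 1.879 ± 0.241 against 2.495 ± 0.219 (exact permutation p = 0.0286, adjusted p = 0.114), again without overlap. Without acetate the inhibitor libraries and the DMSO libraries overlapped in both ratios, with mean differences of -0.44 for Scn2a and -0.74 for Scn8a (exact permutation p = 0.114 for each, adjusted p = 0.183). Scn1a to Scn2a was -4.09 ± 0.07 in inhibitor acetate (n = 4) against -4.36 ± 0.05 in inhibitor vehicle (n = 3), a difference of 0.27 without overlap (exact permutation p = 0.0571, adjusted p = 0.131).

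**Figure D5:**
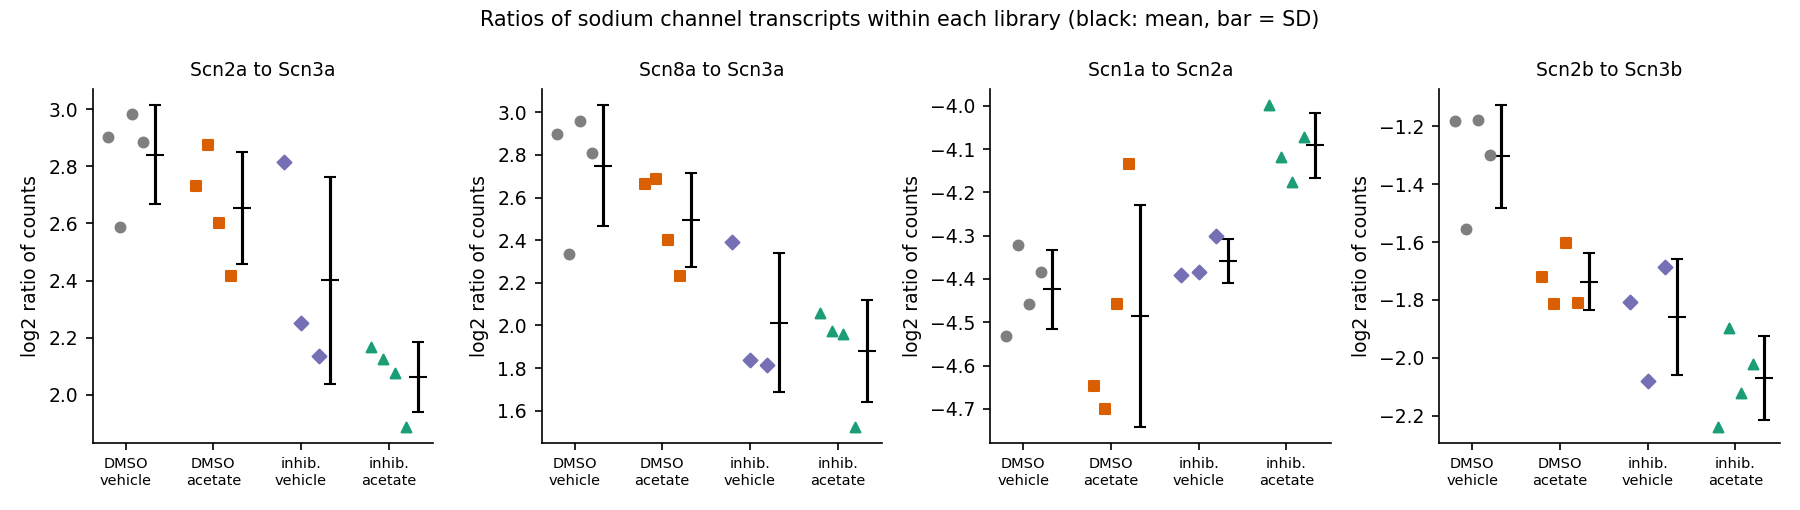
Log2 ratio of the counts of 2 sodium channel genes in each library (y axis) for 4 gene pairs, by group; black marks are means with SD. Scn2b to Scn3b lay between -1.56 and -1.18 in DMSO vehicle and between -2.24 and -1.90 in inhibitor acetate.

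Among further sodium channel genes, Scn9a, an alpha gene of sensory neurons with 109 counts in all, passed in no comparison. Scn4a of skeletal muscle, Scn7a, Scn10a and Scn11a had 38, 60, 2 and 45 counts in all and were not tested.

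Genes of the axon initial segment and direct channel partners made a list of 20. With acetate in the absence of inhibitor 12 rose and none fell (median 0.39), where 23.7% of all genes rose and 27.5% fell. With inhibitor present 13 rose and none fell, where 14.5% rose and 20.6% fell. On the neuronal scale 13 fell and none rose without inhibitor, where 86.6% of all genes fell and 1.03% rose. On that scale 5 fell and 1 rose with inhibitor, where 69.2% fell and 0.929% rose. Fgf11, a fibroblast growth factor homologous factor of the family that binds channel tails, went from 26.9 ± 2.58 to 44.7 ± 5.39 CPM (SD, n = 4 each), a rise of 0.74 (edgeR adjusted p = 9.77e-05), and rose by 0.71 with inhibitor. Trim46, which bundles microtubules in the initial segment, rose by 0.60 and 0.36, Calm3, a calmodulin gene, by 0.94 and 0.77, and Cntn2, a cell adhesion molecule of the axon, by 0.95 and 1.14. Ank3, which encodes ankyrin-G and was singled out after its values were seen, rose by 0.61 (edgeR adjusted p = 0.000931) without inhibitor and stood at -0.06 with it; the difference of -0.67 (SE 0.18) had an edgeR adjusted p of 0.0724.

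Among 14 genes of channel turnover, cleavage, splicing and repression, 5 rose and 3 fell with acetate in the absence of inhibitor (all genes, 23.7% and 27.5%), and 5 and 2 in its presence (all genes, 14.5% and 20.6%). The neuronal splicing factors Rbfox3, also among the pan-neuronal markers, and Nova2 rose by 0.82 and 0.68 without inhibitor, and with it Rbfox3 rose by 0.53 while Nova2 was at 0.27 (edgeR adjusted p = 0.0701). Nedd4l, a ubiquitin ligase acting on sodium channels, rose by 0.35 and 0.26. Bace2, a beta-secretase, was lower with inhibitor alone (16.8 ± 2.0 CPM, SD, n = 3; fold -0.59, edgeR adjusted p = 0.0136) than in DMSO vehicle. With acetate it fell from 25.2 ± 1.16 to 14.6 ± 1.10 CPM (SD, n = 4 each), by 0.79 (edgeR adjusted p = 5.39e-05), and was at -0.04 with inhibitor (difference of responses 0.75, SE 0.15, edgeR adjusted p = 0.0719). On the neuronal scale 10 of the 14 fell without inhibitor and 9 with it, against 86.6% and 69.2% of all genes, and none rose.

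Of 13 sodium leak, pump and exchanger genes, 5 rose and 2 fell without inhibitor (median 0.12; all genes, 23.7% and 27.5%), and 4 and 2 with it (all genes, 14.5% and 20.6%). The sodium-calcium exchanger gene Slc8a2 rose by 0.97 and 0.74 (without and with inhibitor), and Unc80, a subunit of the NALCN leak channel, by 0.51 and 0.52. On the neuronal scale 1 of the 13 rose in each comparison, where 1.03% and 0.929% of all genes rose. There 10 and 6 fell, against 86.6% and 69.2% of all genes.

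Under TMM scaling, other voltage-gated channel families moved less in the median than the 6 sodium channel genes, whose median without inhibitor was 0.67. With inhibitor the sodium channel median was 0.37, close to those of the other families below, and 2 of the 6 rose. Of 8 calcium channel alpha genes 5 rose and 1 fell without inhibitor (median 0.33; 23.7% of all genes rose and 27.5% fell), with Cacna1g, a low-voltage-activated channel, at 1.18, Cacna1b at 0.59, Cacna1i at 0.46 and Cacna1h at 0.37. With inhibitor 4 rose and none fell (median 0.30; 14.5% of all genes rose and 20.6% fell). Of 18 potassium channel alpha genes 7 rose and 2 fell without inhibitor (median 0.31), Kcnc2 by 0.71, Kcnd2 by 0.73 and Kcnd1 by 0.38 among the risers, and 5 rose and 1 fell with inhibitor (median 0.28). On the neuronal scale without inhibitor, 7 calcium channel genes fell and 1 rose (median -0.53). There 12 potassium channel genes fell and 0 rose (median -0.56), where 86.6% of all genes fell and 1.03% rose. The difference between the families was not tested, and the sets are unlike, since the 6 sodium channel genes include the beta genes Scn2b and Scn3b.

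Across the 15 libraries, log2 CPM of the 6 genes ran in parallel to different degrees, from a Pearson r of 0.516 for Scn3a with Scn2b to 0.954 for Scn1a with Scn3a; the libraries share the treatments, the cell make-up and the scaling. Scn8a with Scn2a gave 0.911. Among the 11123 genes compared (average log2 CPM 2 or more), those most like Scn8a were Nav1 (r = 0.990), Lmo1 (0.986) and Stmn2 (0.985). Those most like Scn2a were Gnaq (0.976) and Atp2b1 (0.971), and most like Scn3b Rit2 (0.983), Serf1 (0.980) and Ptpru (0.975). For Scn3a they were C77370 (0.961), Gria2 (0.961) and Strbp (0.959), for Scn1a Cep290 (0.975), Rb1cc1 (0.966) and Kcnq1ot1 (0.966), and for Scn2b Cntnap1 (0.944), Dolpp1 (0.941) and L1cam (0.938).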

How the data were processed

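The values used are raw counts of reads for each gene in each library, deposited by the authors in 1 table without normalization. STAR 2.5.2a, HTSeq 0.6.1p1, DESeq2 and the build mm10 (GRCm38) appear, per the submitters' processing notes, as tools and build; nothing in the sources used here gives the annotation, counting mode or strand setting. Total RNA was made into libraries with a directional kit, per the labels' protocols. Summary lines that name no gene, 38.9% to 47.4% of a library's counts, were left out. The highest share, 47.4%, was in inhibitor vehicle 2, against 39.6% and 39.8% in inhibitor vehicle 1 and 3.

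The analysis ran in R 4.3.3, using edgeR 4.0.16 and limma 3.58.1: default expression filter, TMM scaling, 1 quasi-likelihood fit of all 15 libraries with a mean per group, and Benjamini-Hochberg adjustment over 15075 genes at a threshold of 0.05. Each SE was obtained from the fold and its F statistic (fold over root F). Log2 CPM used a prior count of 2. Levels per kb used the union of GENCODE M21 exons, and sequences came from a RefSeq table (GRCm38.p6). Ratios of counts were compared by exact permutation tests in scipy 1.17.1. The steps were tested on simulated data. The 21 within-group pairs of libraries differed by 4.65 to 144 in chi-square per gene, so none was counted as a copy.

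The genes, the 15 lists and the tests were chosen with earlier results of these data known. Named were all 7 genes, up to 4 genes of each list with the smallest p among those past the threshold for acetate without inhibitor, and for each gene the 3 most correlated genes. From the last, Gm and Rik symbols and most other symbols made of a number were left out, though C77370 stayed in. A few genes that this rule names are not reported here. Alternatives were DESeq2 1.42.0 and its size factors, upper-quartile scaling, scaling to the pan-neuronal markers, no filter on low counts, only the groups compared, a replicate block, the non-neuronal score as covariate, leaving out libraries and, added after the data were seen, the length of the longest transcript.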

Additional observations from a re-analysis of the deposited data

Results flagged for a closer look

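In 33 sets of values checked (the 7 genes' levels and the 4 ratios in the groups of 4 libraries), a library lay far from the others of its group in 2 cases. Chance gives this in about 1 in 20 sets, so 2 of 33 is about what chance alone would give. Scn3a was at 60.5 CPM in inhibitor acetate 4, while the other 3 libraries of that group lay between 38.8 and 39.5 CPM. Without it the Scn3a fold for inhibitor with acetate was 0.34 (edgeR adjusted p = 0.342) in place of 0.52. Scn3b was at 97.8 CPM in DMSO vehicle 1, while the others of that group lay between 79.0 and 80.0 CPM. Without that library its acetate fold without inhibitor was 0.84 in place of 0.77, and it rose in both.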

How the results depend on the processing

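The acetate rise without inhibitor of Scn1a, Scn2a, Scn3a, Scn8a and Scn3b kept its call under median-ratio and upper-quartile scaling, DESeq2, no filter, only the groups compared, the replicate block and each left-out library. The call was lost under scaling to pan-neuronal markers and, except for Scn3b, with the non-neuronal score as covariate. On the pan-neuronal scale the median of the 6 tested genes was 0.72 above that of all genes, against 0.70 under TMM scaling. A change of scaling shifts every gene by about the same amount. The like gaps were thus set in advance and do not show that the rise held on that scale. Scn2b's call was lost under upper-quartile scaling, the block and only the groups compared. Causes were not tested. Depth limited Scn4b alone among the 7.

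Scaled to pan-neuronal markers, 0 genes rose and 2 fell with acetate without inhibitor, where 1.03% of genes tested rose and 86.6% fell. With it 0 rose and 3 fell, where 0.929% rose and 69.2% fell. For the inhibitor 1 rose in each background, where 0.146% rose without acetate and 0.352% with it. Folds that turned were Scn1a -0.20, Scn2a -0.16, Scn8a -0.23, Scn2b -0.51 and Scn3b -0.081 without inhibitor, and Scn1a -0.17, Scn2a -0.44, Scn3a -0.11, Scn8a -0.24, Scn2b -0.29 and Scn3b -0.079 with it. In the difference of responses they were Scn1a 0.039, Scn2b 0.22 and Scn3b 0.002, for inhibitor without acetate Scn2b -0.086, and for inhibitor with acetate Scn2a 0.06, Scn8a 0.032 and Scn2b 0.13.

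With the score as covariate 1 gene rose with acetate without inhibitor, 0 with it, and 2 for inhibitor with acetate. Of genes tested 7.89%, 5.07% and 5.68% rose in the same order. Folds that turned were Scn2a -0.18 for acetate with inhibitor, Scn2b 0.045 in the difference, and Scn8a -0.003 and Scn2b -0.071 for inhibitor without acetate. Scn2b, always near 0 there, also turned under upper-quartile scaling (0.022 in the difference, -0.01 and 0.012 for inhibitor without and with acetate) and only the groups compared (-0.002 and 0.000).

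Scn4b entered and fell (1 gene) for acetate without inhibitor in the fit with no filter, in DESeq2 and with both DMSO vehicle 1 and inhibitor vehicle 2 left out. For acetate with inhibitor, 1 gene rose with no filter and with only the groups compared, and 6 rose with both libraries left out. For inhibitor without acetate 0 rose with only the groups compared, and for inhibitor with acetate 2 rose there and 2 with both libraries left out.

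Leaving out each library in turn, 5 to 6 genes rose with acetate without inhibitor, where 3010 to 3855 of all genes did. Between 0 and 1 fell there (Scn4b, without inhibitor vehicle 1 or 2, where 4285 and 4446 genes fell). With inhibitor 1 to 5 rose, where 1245 to 2894 of all genes did. In the difference 0 to 1 fell, where 0 to 745 did. For inhibitor without acetate 1 to 3 rose, where 134 to 1000 did, and with acetate 0 to 1, where 97 to 598 did. These fits tested 14955 to 15282 genes. Scn2b ranged from -0.138 to 0.092 in the difference, -0.091 to 0.138 for inhibitor without acetate and -0.055 to 0.064 with it. The ratio Scn1a to Scn2a ranged from -0.178 to 0.011 for acetate without inhibitor, and Scn8a to Scn3a from -0.233 to 0.054 with it.

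Replicate numbers did not pair the libraries: same-numbered libraries' deviations from their group means correlated at -0.65 to 0.38, over 0.1 in 6 of 21 pairs. With the number as a replicate block 1 gene rose for acetate with inhibitor, against 12.7% of genes tested. Scn8a was at 0.34 there (edgeR adjusted p = 0.0843), and Scn2b without inhibitor had an edgeR adjusted p of 0.0622.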

Other observations

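Excitatory and inhibitory neuron markers bear on Scn1a, which is best known from interneurons, and are given here under TMM scaling, with no test of the difference between the lists. Of 8 excitatory markers 5 rose and none fell with acetate in the absence of inhibitor (median log2 fold 0.91), and 4 rose in its presence (median 0.66). Of 11 inhibitory markers 3 rose and 1 fell without inhibitor (median 0.12), and 2 rose and 1 fell with it (median 0.27). Of all genes tested 23.7% rose and 27.5% fell without inhibitor, and 14.5% and 20.6% with it. Scaled to the pan-neuronal markers, the medians without inhibitor were 0.09 for the excitatory and -0.79 for the inhibitory markers, against -0.90 for all genes.

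The mean make-up of the beta genes among themselves differed between the groups, and the shares were not tested. Of the summed RNA per kb of Scn2b, Scn3b and Scn4b, Scn3b made up 67.5% ± 2.62 in DMSO vehicle, 73.9% ± 1.37 in DMSO acetate, 75.4% ± 2.63 in inhibitor vehicle and 78.1% ± 1.75 in inhibitor acetate. Scn4b made up 0.344% ± 0.107, 0.0656% ± 0.0566, 0.207% ± 0.123 and 0.0810% ± 0.0678 in the same order (SD, n = 4, 4, 3 and 4).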
